A study of Mus with 6 samples.

Results

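The genes described here encode the nuclear subunits and assembly factors of respiratory complexes I to V, the enzymes of coenzyme Q synthesis and the uncoupling proteins. They were chosen by symbol, though with earlier results of these data known. The rule took the Nduf, Sdh, Uqcr, Uqcc, Cox, Atp5, Atpaf, Ucp and Coq genes together with Cyc1, Cycs, Surf1, Sco1, Sco2 and Atpif1. RefSeq lists 137 genes under this rule. Of these, 70 had a row that could be used among the 11659 genes of the count table, 41 had a row in parts of the table that were not used, and 26 are not analysed here. The 70 genes comprised 23 subunits and 3 assembly factors of complex I, 3 genes of complex II, 5 of complex III, 9 subunits and 8 assembly factors of complex IV, 10 genes of complex V, 8 coenzyme Q genes and Ucp2. All 70 were detected in all 6 samples and passed the filter on low counts, so none was lost from the test.

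In the inner mitochondrial membrane, complex I takes electrons from NADH and complex II from succinate. Coenzyme Q carries them to complex III, cytochrome c carries them on to complex IV, and complex IV passes them to oxygen. Complexes I, III and IV pump protons, and complex V, the ATP synthase, uses the proton gradient to make ATP. Articular cartilage has no blood vessels, and its chondrocytes are known to draw much of their ATP from glycolysis.

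RNA was sequenced from knee cartilage chondrocytes of 12-week-old C57BL/6J mice, with 3 wild-type (WT) and 3 conditional Sirt6 knockout (Sirt6 cKO) samples, to look for pathways through which Sirt6, a nuclear deacetylase, acts on chondrocyte senescence. In the study's Sirt6 cKO mice, a tamoxifen-dependent Cre driven by Col2a1 (Col2a1-CreERT2) recombines Sirt6 flox/flox alleles, so deletion is limited to cells that expressed Col2a1 at the time of tamoxifen. The methods do not state when the mice of these samples received tamoxifen, or whether the WT mice carried floxed alleles or received tamoxifen. The study used male mice and first-passage primary chondrocytes, and it describes the samples as chondrocytes of control and Sirt6 KO mice without saying whether each sample is 1 animal or a pool. If they are not separate animals, p-values measure only the spread between these samples, which may be technical.

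The counts summed to between 25726958 and 30156935 per sample. Sirt6 itself (ENSMUSG00000034748) had 10273, 9963 and 10943 reads in the WT samples, against 1056, 862 and 660 reads with Sirt6 deleted, a fall of 92.3% (log2 fold change -3.69, SE 0.21, edgeR adjusted p = 8e-06), in the direction of the labels. WT replicate 1 stood apart, since its log2 counts correlated across genes with those of WT replicates 2 and 3 at 0.968 and 0.970, whereas WT replicates 2 and 3 correlated at 0.992. The table also limits which genes can be read. Across the 6623 rows of the identifier ranges used here, exon length went with the count of the same row (Spearman's rho across genes 0.276) and not with counts up to 5 rows away (rho -0.012 to 0.031). In the other rows, rho was 0.359 with the same row and 0.463 with the count 3 rows further up, and genes in those rows were not read. The 70 genes had a median length-scaled level at the 73.8 percentile of genes in their own rows, against 50.9 to 60.4 in rows 1 to 5 away. Among chondrocyte markers, Col2a1 and Acan are not analysed here, and Comp had 15, 14 and 28 reads in the WT samples and 193, 322 and 182 in the Sirt6 cKO samples. The summed CPM of 5 of 16 chondrocyte markers was 199.3 to 217.3 in WT and 392.6 to 491.9 in Sirt6 cKO samples, and for 8 of 9 synovial fibroblast markers it was 11210 to 11480 and 36200 to 41740. Of these markers, Ucma (6, 2 and 6 reads in the WT samples, 319, 307 and 114 with Sirt6 deleted) and Lum (0, 4 and 4, against 257, 249 and 326) passed the filter on low counts through the Sirt6 cKO samples alone. Both sums were higher in Sirt6 cKO samples without overlap, though a few abundant genes make up most of each, and Col9a3 (log2 fold change -0.53), Pdpn (-0.36), Has1 (-0.26) and Thy1 (0.09) did not pass. Their part in the results below was not tested, and in bulk RNA fewer cells of a type and less RNA per cell cannot be told apart.

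Among respiratory chain and ATP synthase genes, more were lower than higher in Sirt6 cKO chondrocytes. At an edgeR adjusted p under 0.05 over all 11246 genes tested, 35 of the 70 genes (50%) were lower, 3 (4.29%) were higher and 32 did not pass, whereas 24.3% of all genes were lower and 22.5% were higher. The log2 fold change was below 0 in 59 of the 70 genes, its median was -0.50 and its range ran from -1.86 to 2.78, beside a median of 0.00 over all genes. The 3 samples of one genotype lay entirely on one side of the other 3 in 52 genes (74.3%), beside 60.9% of all genes. For a single gene 3 samples against 3 cannot give an exact two-sided permutation p below 0.1. The same call with a 2-fold threshold added took 5 of the 70 genes as lower and 2 as higher, beside 7.15% and 8.72% of all genes. The 5 were Ucp2, Atp5g3, Ndufb2, Atp5j2 and Cox6b1, and the 2 were Coq8a and Cox6a2, so most of the decreases were smaller than 2-fold.

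**Figure D1:**
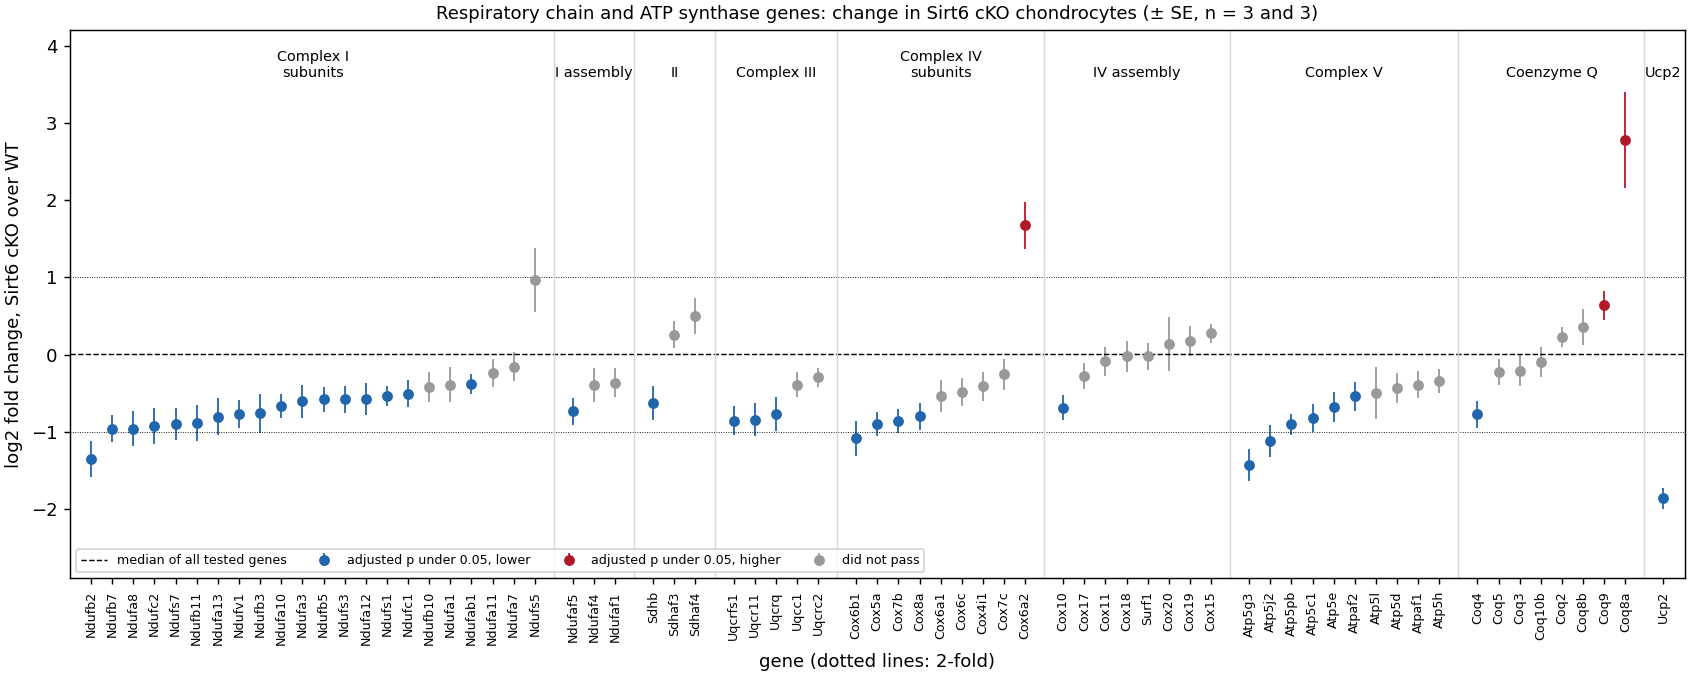
Log2 fold change (Sirt6 cKO over WT, vertical axis) of the 70 genes, apart from 1 that is not reported here, grouped by complex along the horizontal axis, with bars of ± 1 SE from the edgeR fit on 3 WT and 3 Sirt6 cKO samples. Blue points (35) are lower and red points (3) higher at an adjusted p under 0.05, grey points did not pass, the dashed line marks the median of all genes and the dotted lines 2-fold; subunits of complexes I, III, IV and V lie mostly below the dashed line, while complex IV assembly factors and coenzyme Q genes lie around it.

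The 70 genes took 0.865%, 0.635% and 0.649% of all reads in WT samples, against 0.512%, 0.483% and 0.445% in the Sirt6 cKO samples. The genotypes did not overlap, but WT replicate 1 was well above the other 2 WT samples. It was the highest WT sample in 61 of the 70 genes. When WT replicate 1 was left out of the fit, 32 genes were lower and 7 higher, the median was -0.32, and 35 of the 38 calls were kept in the same direction. Leaving out Sirt6 cKO replicate 2 or 3 instead cost more calls, with 23 and 21 genes lower. Then 25 and 23 of the 38 calls were kept, at medians of -0.50 and -0.45. Of all genes, 27.8% were lower without WT replicate 1, and 16.9% and 19.9% without Sirt6 cKO replicates 2 and 3. Without WT replicate 1 the genes lower past 2-fold numbered 3, since Atp5j2 (-0.84) and Cox6b1 (-0.84) no longer reached 2-fold.

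**Figure D2:**
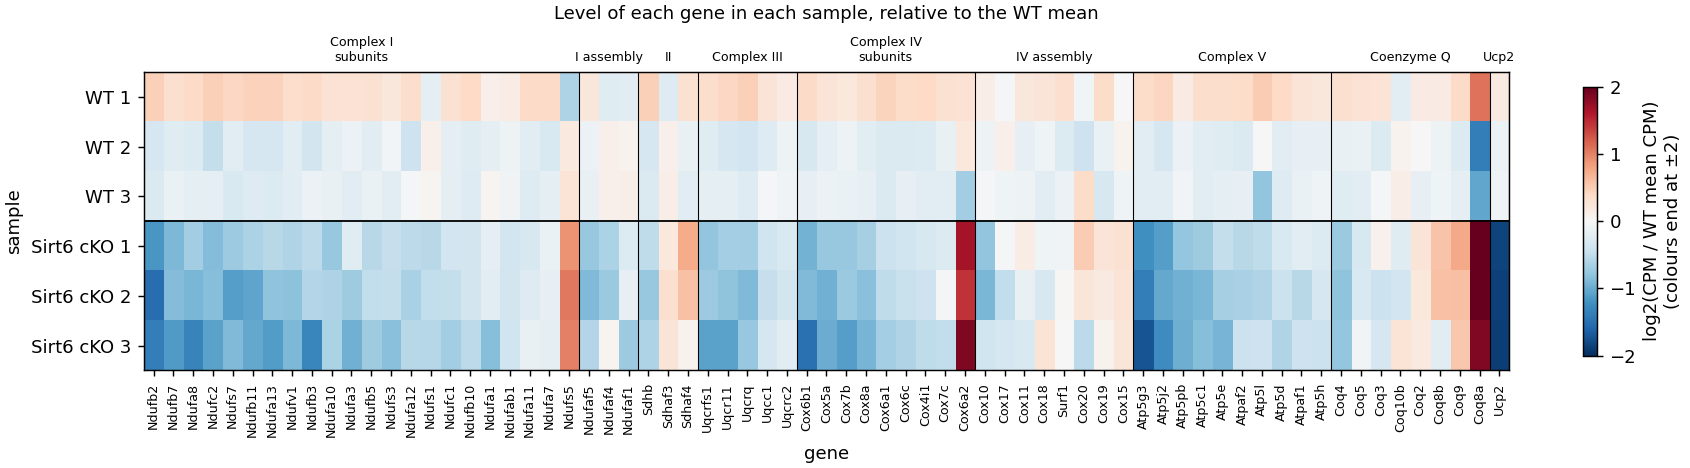
Level of the 70 genes, apart from 1 that is not reported here (columns), in each of the 6 samples (rows), as log2 of CPM over the mean CPM of the WT samples, from blue (lower) to red (higher), with colours ending at ± 2. The row of WT replicate 1 is redder than those of WT replicates 2 and 3 in most columns, and the 3 Sirt6 cKO rows are alike and blue in most subunit columns.

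Complex I was the group with the most members. Of its 23 subunits, 17 were lower in Sirt6 cKO samples, none was higher and 6 did not pass, with a median log2 fold change of -0.58. The decrease was seen in both arms of the L-shaped complex, in a split made after the values were seen. In the matrix arm, which holds the flavin and iron-sulfur clusters, 5 of 7 genes were lower (median -0.58), and in the membrane arm, which pumps protons, 11 of 15 were lower (median -0.67). The count over all 23 depended on the samples used. It was 14 without WT replicate 1, 12, 9 and 7 without Sirt6 cKO replicates 1, 2 and 3, and 14 and 13 without WT replicates 2 and 3. Of all genes, 24.3% were lower with all samples, against 27.8% without WT replicate 1. The share was 17.1%, 16.9% and 19.9% without Sirt6 cKO replicates 1, 2 and 3, and 21.1% and 19.8% without WT replicates 2 and 3. In the matrix arm the count was then 3 or 4 of 7. In the membrane arm it was 4 to 10 of 15, the lowest without Sirt6 cKO replicate 3. The median over the 23 subunits lay between -0.67 and -0.46.

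Ndufb2, a small accessory subunit of the membrane arm (ENSMUSG00000002416, chromosome 6 from 39592574 to 39603382), had the largest decrease in complex I. Its level was 97.6, 55.4 and 57.1 CPM (the read count scaled to library size with TMM factors) in WT and 31.2, 24.3 and 26.9 CPM in Sirt6 cKO samples. WT replicate 1 was the highest of the 3, and every Sirt6 cKO sample was below every WT sample. The log2 fold change was -1.35 (SE 0.23, n = 3 and 3, edgeR adjusted p = 0.00201), and -1.04 without WT replicate 1. Ndufb2 shares part of its span with Braf.

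Ndufb7, another accessory subunit of the membrane arm, had 99.0, 66.9 and 72.1 CPM in WT and 42.6, 43.5 and 36.2 CPM in Sirt6 cKO samples, which did not overlap (log2 fold change -0.96, SE 0.18, edgeR adjusted p = 0.00269). Ndufa8, a membrane arm subunit on the intermembrane space side, had the highest length-scaled level of complex I, at 117.3 FPKM (here CPM divided by exon length in kilobases) in WT and 60.3 FPKM in Sirt6 cKO samples. In counts it had 132, 83.4 and 87.9 CPM in WT and 62.0, 53.8 and 40.0 CPM in Sirt6 cKO samples (log2 fold change -0.96, SE 0.22, edgeR adjusted p = 0.00811). For both genes the lowest WT sample was well above the highest Sirt6 cKO sample.

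Core subunits of the matrix arm carry the redox groups. Ndufv1, which carries the flavin that accepts electrons from NADH, had 269, 181 and 182 CPM in WT and 138, 119 and 113 CPM in Sirt6 cKO samples (log2 fold change -0.77, SE 0.18, edgeR adjusted p = 0.00888). Ndufs1, the largest iron-sulfur subunit, was the only gene called lower in complex I in which WT replicate 1 was the lowest WT sample, with 143, 174 and 168 CPM against 110, 115 and 109 CPM in Sirt6 cKO samples. Its log2 fold change was -0.54 (SE 0.13, edgeR adjusted p = 0.00897) with all samples and -0.62 without WT replicate 1. Ndufv1 and Ndufs1 were chosen for their roles after the values were seen.

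The other genes called lower in complex I had log2 fold changes between -0.92 (Ndufc2) and -0.38 (Ndufab1). Ndufab1, the acyl carrier protein of the complex, lost its call in 8 of 16 alternatives, among them the replicate block (adjusted p = 0.0653). Ndufs5 was the exception in sign, at 0.97 (SE 0.41, edgeR adjusted p = 0.0818), but it rested on 6, 13 and 14 reads in WT samples, against 21, 24 and 23 in the Sirt6 cKO samples. WT replicate 1 was too low for the WT samples alone to carry Ndufs5 past the filter on low counts. Many small respiratory subunits have processed pseudogenes, and how reads shared between copies were counted is not stated, so the low counts of Ndufs5, Atp5l, Cox20 and Cox7c are uncertain. Among the 3 complex I assembly factors, Ndufaf5, which modifies the core subunit Ndufs7, was lower. It had 19.1, 15.1 and 14.8 CPM in WT and 9.69, 8.81 and 10.9 CPM in Sirt6 cKO samples (log2 fold change -0.73, SE 0.17, edgeR adjusted p = 0.0086). Ndufaf1 (-0.37) and Ndufaf4 (-0.40) did not pass, though Ndufaf4 was called lower without Sirt6 cKO replicate 3 (-0.67, adjusted p = 0.0188).

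Complex II was measured through 1 of its catalytic subunits. Sdhb, the iron-sulfur subunit, had 156, 89.6 and 91.6 CPM in WT and 78.7, 66.2 and 73.5 CPM in Sirt6 cKO samples. All Sirt6 cKO samples were below the WT samples, and WT replicate 1 was far above the rest. The log2 fold change was -0.63 (SE 0.22, edgeR adjusted p = 0.0434). It was -0.32 without WT replicate 1 (adjusted p = 0.0267), and the call was lost without any 1 of the Sirt6 cKO samples, with upper-quartile factors and with limma-voom, with adjusted p up to 0.136. The assembly factors Sdhaf3 (0.26) and Sdhaf4 (0.50), which help to mature Sdhb and to join Sdha with it, had positive values and did not pass. Sdhaf4 was called higher without WT replicate 1 (0.68, adjusted p = 0.0265) and without Sirt6 cKO replicate 3. Sdha, Sdhc and Sdhd were not used here.

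In complex III, 3 of 5 genes were lower, beside 24.3% of all genes, and none was higher. The genotypes did not overlap in any of the 5, as in 60.9% of all genes. Uqcrfs1, the Rieske iron-sulfur protein that passes electrons towards cytochrome c, had 143, 94.5 and 97.7 CPM in WT and 64.5, 67.2 and 53.3 CPM in Sirt6 cKO samples (log2 fold change -0.86, SE 0.19, edgeR adjusted p = 0.00635). Uqcr11, a small subunit of the complex, had 83.6, 49.5 and 54.5 CPM in WT and 39.1, 35.6 and 29.8 CPM in Sirt6 cKO samples (-0.84, SE 0.21, edgeR adjusted p = 0.0119). Uqcrq, with the highest length-scaled level of complex III (106.6 FPKM in WT and 62.4 FPKM in Sirt6 cKO samples), had 272, 151 and 163 CPM in WT and 121, 106 and 116 CPM in Sirt6 cKO samples (-0.77, SE 0.22, edgeR adjusted p = 0.0194).

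WT replicate 1 was far above the other WT samples in each of these 3 genes. Without it the values were -0.64, -0.58 and -0.46, and all 3 were still called. Without Sirt6 cKO replicate 3, Uqcr11 (adjusted p = 0.0572) and Uqcrq did not pass, and without Sirt6 cKO replicate 2 Uqcrq did not pass either, with adjusted p up to 0.072. Uqcrc2, a core subunit without a redox group, had a log2 fold change of -0.30 (SE 0.13, edgeR adjusted p = 0.0871), and the assembly factor Uqcc1 one of -0.39 (SE 0.16, edgeR adjusted p = 0.0709). Uqcc1 was at -0.25 without WT replicate 1, and it was called lower without WT replicate 2 (-0.49, adjusted p = 0.0481).

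**Figure D3:**
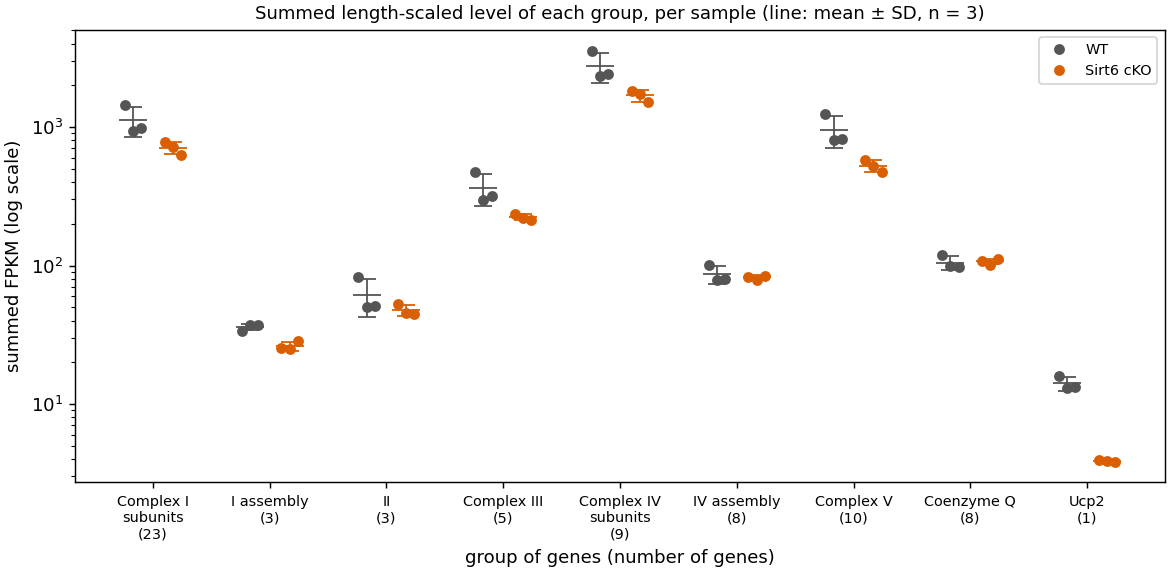
Summed FPKM of the genes of each group (logarithmic vertical axis) in each WT (grey) and Sirt6 cKO (orange) sample, with the number of genes under each group and horizontal lines with bars for mean ± SD (n = 3). The genotypes do not overlap for the subunits of complexes I, III, IV and V, for complex I assembly and for Ucp2, and they do overlap for complex II, complex IV assembly and coenzyme Q; the uppermost grey point is WT replicate 1 in every group except complex I assembly.

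Complex IV, cytochrome c oxidase, had the highest summed level of all groups, at 3553, 2329 and 2421 summed FPKM over 9 subunits in WT samples, against 1834, 1723 and 1515 in the Sirt6 cKO samples, a ratio of the means of 0.611. Of the 9 subunits, 4 were lower, 1 was higher and 4 did not pass. Cox6b1, an intermembrane space subunit that links 2 copies of the complex, had 290, 179 and 197 CPM in WT and 115, 120 and 78.9 CPM in Sirt6 cKO samples. The Sirt6 cKO samples were all well below the lowest WT sample (log2 fold change -1.08, SE 0.23, edgeR adjusted p = 0.00491). Cox5a, a subunit of the matrix side, had 224, 167 and 174 CPM in WT and 111, 97.2 and 94.4 CPM in Sirt6 cKO samples (-0.90, SE 0.15, edgeR adjusted p = 0.00194).

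Cox8a, a small transmembrane subunit, had the highest length-scaled level of all 70 genes, at 814.5 FPKM in WT and 467.0 FPKM in Sirt6 cKO samples. Its counts were 556, 380 and 396 CPM in WT and 280, 249 and 234 CPM in Sirt6 cKO samples (-0.80, SE 0.17, edgeR adjusted p = 0.00526). The fourth gene called lower was Cox7b, another small transmembrane subunit (-0.86, SE 0.16, edgeR adjusted p = 0.00248). Both kept a call without WT replicate 1, at -0.61 and -0.74.

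Both isoforms could be measured for 1 subunit of complex IV. Cox6a exists in a widespread form, Cox6a1, and in a form best known from heart and skeletal muscle, Cox6a2. Cox6a2 had 1.95, 1.86 and 0.99 CPM in WT and 5.10, 4.36 and 5.84 CPM in Sirt6 cKO samples, with no overlap, and was higher in Sirt6 cKO samples (log2 fold change 1.68, SE 0.30, edgeR adjusted p = 0.00252). These values rest on 30 to 55 reads per WT sample and 131 to 173 per Sirt6 cKO sample, and Cox6a2 shares part of its span with Itgad. Cox6a1 had 585, 350 and 350 CPM in WT and 318, 303 and 267 CPM in Sirt6 cKO samples, again with no overlap, but did not pass (-0.53, SE 0.21, edgeR adjusted p = 0.0621). It passed with the replicate number as a block (adjusted p = 0.0216), while without WT replicate 1 the log2 fold change was -0.24 (adjusted p = 0.0588). Per exon length, Cox6a1 remained far above Cox6a2 in both genotypes, at 610.0 against 2.44 FPKM in WT and 421.2 against 7.75 FPKM in Sirt6 cKO samples. None of the 10 skeletal muscle markers listed had a row that could be used, so the share of muscle RNA was not measured.

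Cox4i1, the common form of the subunit through which ATP regulates the complex, had 829, 521 and 543 CPM in WT and 507, 474 and 442 CPM in Sirt6 cKO samples. The samples did not overlap, but the gap between the genotypes was small beside the spread of the WT samples, and the gene did not pass (log2 fold change -0.41, SE 0.19, edgeR adjusted p = 0.0974). Without WT replicate 1 its log2 fold change was -0.17 (adjusted p = 0.136). The forms Cox4i2, Cox6b2, Cox7a1, Cox8b and Ndufa4l2, known from lung, testis, muscle or low oxygen, and the widespread forms Cox7a2, Cox7a2l and Ndufa4 were not analysed here.

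Assembly factors insert heme and copper into complex IV and fold its subunits. Of 8 of them 1 was lower, none was higher, and the median log2 fold change was -0.02. Without WT replicate 1, 1 was lower, 2 were higher and the median was 0.12. Cox10, which makes a heme precursor for the complex, had 53.6, 46.0 and 47.7 CPM in WT and 28.3, 25.98 and 37.2 CPM in Sirt6 cKO samples (-0.69, SE 0.17, edgeR adjusted p = 0.0098). Cox15, which acts after Cox10 in the same heme pathway, had 48.9, 51.0 and 45.8 CPM in WT and 59.9, 58.8 and 57.5 CPM in Sirt6 cKO samples, and so lay on the other side with no overlap, but it did not pass (0.27, SE 0.12, edgeR adjusted p = 0.0929). It passed without WT replicate 1 (0.28, adjusted p = 0.0379), as did the copper-handling factor Cox19 (0.40, adjusted p = 0.0209). Surf1, which is mutated in Leigh syndrome, had a log2 fold change of -0.02 (SE 0.17). Whether assembly factors differed from subunits was not tested.

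In complex V all 10 genes had negative values, 6 were lower, and the median log2 fold change was -0.61. The summed level of the 10 genes was 1232, 804.6 and 821.6 FPKM in WT and 574.7, 527.3 and 475.1 FPKM in Sirt6 cKO samples, a ratio of the means of 0.552. In a split by sector made after the values were seen, 3 of 5 genes of the membrane-bound Fo sector and 2 of 3 of the catalytic F1 sector were lower, with medians of -0.90 and -0.68. Without WT replicate 1 the same number were lower in each sector, but the median over the 10 genes was -0.39. Without Sirt6 cKO replicate 2 or 3, 4 of the 10 genes were lower, since Atp5e, the F1 epsilon subunit (adjusted p up to 0.0793), and Atpaf2 lost their calls. The third F1 gene, Atp5d, had a log2 fold change of -0.44 and did not pass (edgeR adjusted p = 0.0914), but it passed with the replicate number as a block (adjusted p = 0.0386). Without WT replicate 1 its log2 fold change was -0.19 (adjusted p = 0.15).

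Atp5g3 (ENSMUSG00000018770, chromosome 2 from 73908447 to 73911326) is 1 of several genes for the c subunit, whose ring in the membrane is turned by protons, and it also had the highest length-scaled level of complex V. It had 622, 410 and 413 CPM in WT and 207, 186 and 145 CPM in Sirt6 cKO samples, and every Sirt6 cKO sample was far below every WT sample. This was a fall of 62.8% (log2 fold change -1.43, SE 0.21, edgeR adjusted p = 0.000814), and without WT replicate 1 the log2 fold change was -1.20. Its mean length-scaled level went from 220.9 to 82.2 FPKM. Of the other c subunit genes, Atp5g1 and Atp5g2 were not used here, so the total message for the c subunit is not known.

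Atp5j2, the f subunit of the Fo sector, had 280, 165 and 178 CPM in WT and 97.1, 103 and 86.9 CPM in Sirt6 cKO samples, with all Sirt6 cKO samples far below the WT samples (-1.12, SE 0.21, edgeR adjusted p = 0.00279). Atp5pb, the b subunit of the stalk that holds the 2 sectors together, had 182, 148 and 155 CPM in WT and 94.1, 83.3 and 82.4 CPM in Sirt6 cKO samples (-0.90, SE 0.14, edgeR adjusted p = 0.00107). Atp5c1, the gamma subunit that turns inside F1, fell by 0.82 on the log2 scale (SE 0.18, edgeR adjusted p = 0.00573). The rise of WT replicate 1 over the other WT samples was smaller in Atp5pb than in Atp5j2, and without that sample the log2 fold changes were -0.81 and -0.84. The assembly factor Atpaf2 passed (-0.54, SE 0.19, edgeR adjusted p = 0.0409) but lost its call without WT replicate 3 or any 1 of the Sirt6 cKO samples (adjusted p up to 0.13) and with upper-quartile factors (adjusted p = 0.0666), and its log2 fold change without WT replicate 1 was -0.32. Atpaf1 (-0.39) did not pass.

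Ucp2 showed the largest decrease of the 70 genes. Ucp2 (ENSMUSG00000033685, chromosome 7 from 100493337 to 100502020) encodes an inner membrane carrier of the uncoupling protein family that is found in many tissues, whereas Ucp1 is the form of brown fat. It had 2696, 2695 and 2795 reads in WT samples, against 798, 816 and 792 in the Sirt6 cKO samples, or 112, 91.3 and 92.4 CPM and 27.3, 27.1 and 26.7 CPM. The Sirt6 cKO samples were nearly equal, and WT replicate 1 was only slightly above the other WT samples. The fall was 72.5% (log2 fold change -1.86, SE 0.14, edgeR adjusted p = 2.49e-05), and over 16 alternatives the log2 fold change lay between -1.91 and -1.76.

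Of the 8 coenzyme Q genes, 2 (25%) were higher and 1 (12.5%) was lower, beside 22.5% and 24.3% of all genes. The other 5 did not pass, and the median log2 fold change was 0.07. Coq8a (ENSMUSG00000026489, chromosome 1 from 180165238 to 180199602), an atypical kinase required for coenzyme Q synthesis, had 45, 10 and 13 reads in WT samples, against 169, 258 and 94 in the Sirt6 cKO samples. All 3 Sirt6 cKO samples were above the WT samples, though they varied among themselves by more than 2-fold. The log2 fold change was 2.78 (SE 0.62, edgeR adjusted p = 0.00668), and 3.91 without WT replicate 1. Its level stayed low, at a mean of 0.166 FPKM in WT and 1.11 FPKM in Sirt6 cKO samples, and its span overlaps Cdc42bpa. Its paralog Coq8b, with the same role in other tissues, had a WT mean of 3.13 FPKM, and did not pass (0.36, SE 0.23, edgeR adjusted p = 0.239). It was called higher without Sirt6 cKO replicate 3 (0.59, adjusted p = 0.0314), as was Coq2, which joins the ring and the tail of coenzyme Q, without WT replicate 1 (0.31, adjusted p = 0.0235).

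Coq9, a lipid-binding protein that works with the hydroxylase Coq7, had 47.8, 30.3 and 32.3 CPM in WT and 62.2, 55.7 and 53.5 CPM in Sirt6 cKO samples. The genotypes did not overlap, and the log2 fold change was 0.64 (SE 0.19, edgeR adjusted p = 0.0229). The call was lost without any 1 of 4 samples (WT replicates 2 and 3 and Sirt6 cKO replicates 1 and 2), with adjusted p up to 0.085. Coq4, which acts in the same pathway and is needed for the assembly of its enzymes, went the other way, with 37.5, 26.9 and 25.3 CPM in WT and 17.8, 17.03 and 17.6 CPM in Sirt6 cKO samples (-0.77, SE 0.18, edgeR adjusted p = 0.00761). Coq10b, a coenzyme Q binding protein, had overlapping samples, from 31.9 to 41.3 CPM in WT and from 28.8 to 45.2 CPM in Sirt6 cKO samples (-0.09, SE 0.20, edgeR adjusted p = 0.726).

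**Figure D4:**
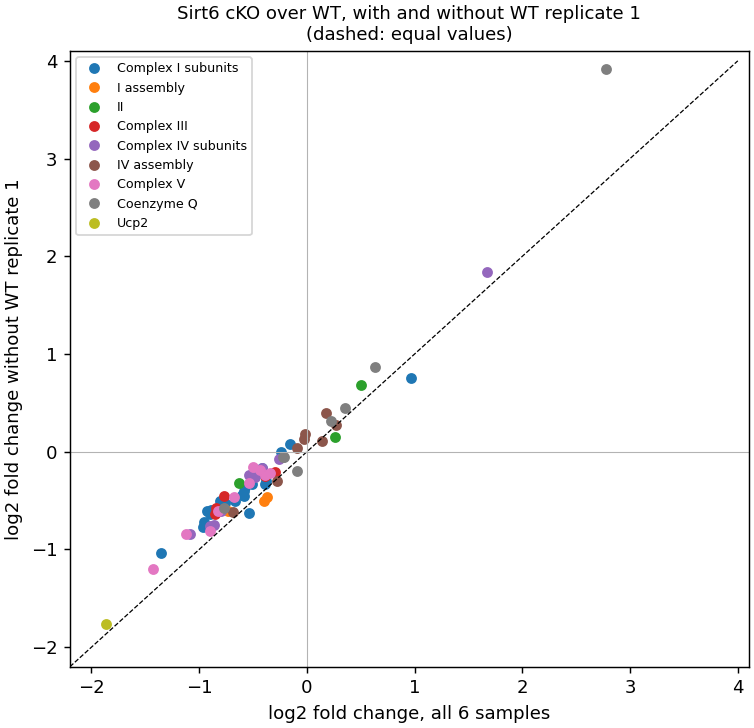
Log2 fold change (Sirt6 cKO over WT) of the same genes with all 6 samples (horizontal axis) and without WT replicate 1 (vertical axis), coloured by group, with a dashed line at equal values. Most genes that were lower lie above the line, that is, closer to 0 without WT replicate 1, Ucp2 stays furthest to the lower left, and Coq8a furthest to the upper right.

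Exon length moved with the change as well, over all genes. The median exon length was 1869.5 bases in the 70 genes and 3943 bases in the rows of the ranges used. These rows were put into 5 bins of 1322 to 1324 rows by exon length. In the shortest bin the median log2 fold change was -0.25 and 33.7% of genes were lower, and in the longest bin the median was 0.22 and 14.6% were lower. WT replicate 1 exceeded WT replicates 2 and 3 by a median of 0.34 (log2) in the shortest bin and lay 0.31 below them in the longest. The shortest bin held 44 of the 70 genes, of which 24 were lower, with a median of -0.56. When the trend with exon length over the other genes was subtracted, the median of the 70 genes was -0.37 with 52 below 0, and -0.29 with 53 below 0 without WT replicate 1. The medians were then -0.47 for complex I subunits, -0.49 for complex III, -0.40 for complex IV subunits and -0.47 for complex V, against 0.14 for complex IV assembly factors and 0.18 for coenzyme Q genes. Without WT replicate 1 as well, they were -0.37, -0.34, -0.26 and -0.34 for these subunit groups, against 0.21 and 0.15.

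**Figure D5:**
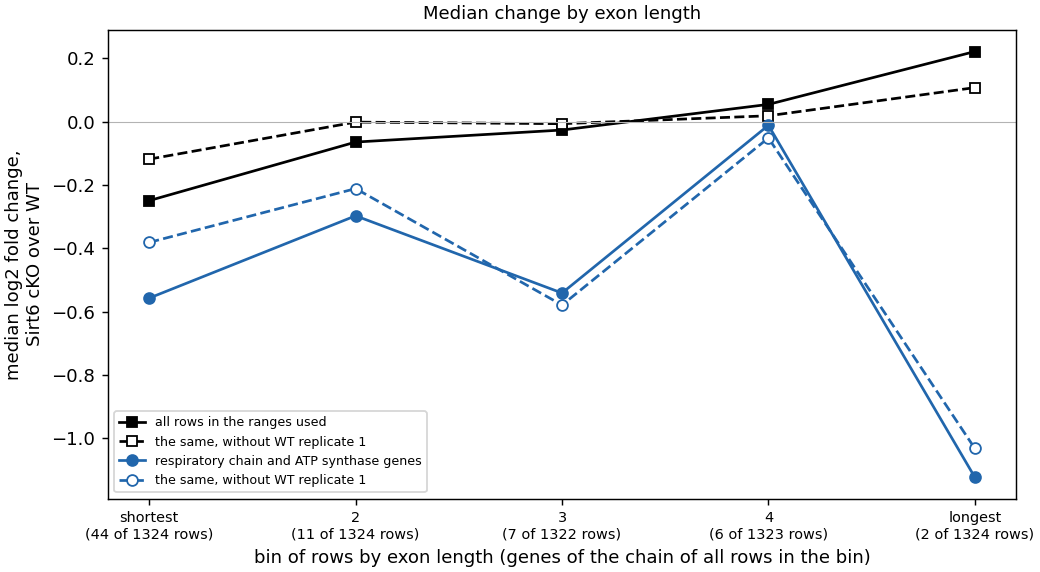
Median log2 fold change (vertical axis) over all rows of the ranges used (black squares) and over respiratory chain and ATP synthase genes (blue circles) in 5 equal bins of the rows by exon length, with all samples (solid lines) and without WT replicate 1 (dashed lines). Over all rows the median rises from -0.25 in the shortest to 0.22 in the longest bin, and the blue points lie below the black ones in every bin, where the 3 longest bins hold only 7, 6 and 2 of the 70 genes.

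Genes that act beside the chain were counted in the same fit. Of 83 listed genes for assembly and translation factors, electron entry, adenine nucleotide carriers and porins, coenzyme Q precursors and regulators, 48 could be tested, of which 11 (22.9%) were lower and 5 (10.4%) higher, beside 24.3% and 22.5% of all genes, with a median log2 fold change of -0.17. Of the 4 carriers and porins, 3 were lower. Slc25a5, the adenine nucleotide translocator that exchanges ADP for ATP across the inner membrane, had 342, 234 and 251 CPM in WT and 73.1, 71.4 and 64.6 CPM in Sirt6 cKO samples, with no overlap (-1.98, SE 0.17, edgeR adjusted p = 5.43e-05). Its paralog Slc25a4, best known from heart and muscle (-0.67, edgeR adjusted p = 0.00549), and the porin Vdac1 (-0.89, edgeR adjusted p = 0.00176) were lower too. Fmc1, an assembly factor of complex V, had 30.1, 18.1 and 18.1 CPM in WT and 9.66, 7.68 and 7.02 CPM in Sirt6 cKO samples (-1.44, SE 0.24, edgeR adjusted p = 0.00176).

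Of 8 listed genes for electron entry, 6 could be tested. These genes, which feed the coenzyme Q pool from fatty acid oxidation and other sources, did not pass. Among 13 regulators 5 (38.5%) were lower and 2 (15.4%) were higher, beside 24.3% and 22.5% of all genes. Their median log2 fold change was -0.11. Ppargc1b, a coactivator of mitochondrial genes, had 10.6, 12.3 and 10.4 CPM in WT and 5.07, 5.75 and 6.31 CPM in Sirt6 cKO samples (-0.96, SE 0.18, edgeR adjusted p = 0.00274). Tfam, which packages and transcribes mitochondrial DNA, had 73.2, 73.5 and 71.2 CPM in WT and 66.9, 58.7 and 76.8 CPM in Sirt6 cKO samples, which overlapped (-0.11, SE 0.14, edgeR adjusted p = 0.55). The 5 genes called higher were the regulators Pdk1 (0.61), a kinase that inhibits pyruvate dehydrogenase, and Polg2 (0.54), a subunit of the mitochondrial DNA polymerase, and the assembly and translation factors Pnkd (0.70), Cmc1 (0.44) and Bcs1l (0.44). Slc25a4, Vdac1, Ppargc1b, Tfam and these 5 genes were named after their values were seen.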

How the data were processed

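The authors deposited raw read counts per Ensembl gene with exon positions and exon length, not normalized. The submitters' processing notes name cutadapt, HISAT2 2.0.5, StringTie and hg19, although the positions in the table match mouse GRCm38. The counter and its strand setting are not given in the sources used here. Methods and labels name different library kits and sequencers. All 6 columns of counts were used. Rows were named by a shared span of at least 0.5 with RefSeq genes of GRCm38.p6 (10609 of 11659 rows), and 29 of the 70 genes share span with another gene. Rows with identifier numbers 1 to 20900 and 25770 to 48200 were read.

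Counts of all genes were fitted with edgeR 4.0.16 in R 4.3.3 (TMM, filterByExpr, which left out 413 rows, glmQLFit and glmQLFTest, genotype as the only term) and adjusted by the Benjamini-Hochberg method. The SE is the log2 fold change over the root of F. CPM and FPKM were computed here from the counts with TMM factors, FPKM with the exon length of the table. No set test was run. The tests were checked on simulated counts. Genes named are those past 2-fold, the 2 largest changes each way per group among those called, listed isoforms and the highest length-scaled gene per complex, and the other genes named were chosen for their roles after their values were seen. Members and lists were chosen with earlier results of these data known. Same-numbered samples deviated together (correlations across genes 0.363, 0.116 and 0.182), and a fit with replicate number as a block was an alternative. The labels do not say what the number marks. Sequences and promoter motifs were not analysed here. The values of 1 member are not reported here, though it is counted. Alternatives were other normalizations, filters, tools (DESeq2 1.42.0, limma-voom 3.58.1), the block, each sample left out, a stricter p or span and, chosen after seeing the data, removal of the length trend by lowess.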

Additional observations from a re-analysis of the deposited data

How the results depend on the processing

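No called gene changed sign under the 16 alternatives fitted per gene. Of the 35 genes called lower, 20 kept the call under all 16, and of the 3 called higher, Coq8a and Cox6a2 did. With 1 sample left out, the number lower lay between 21 (without Sirt6 cKO replicate 3) and 35, against 23 without Sirt6 cKO replicate 2, and over all genes it was 2254 and 1903 in these 2 fits, against 2736. The number higher lay between 2 and 7, with 7 without WT replicate 1 and 5 without Sirt6 cKO replicate 3. The number lower past 2-fold lay between 3 and 9, with 3, 9 and 8 without WT replicates 1, 2 and 3. The number higher past 2-fold was 2 in each. The median log2 fold change lay between -0.56 and -0.32. An adjusted p under 0.01 left 20 lower. A shared span of at least 0.9 left 55 genes in the same fit, with 2 lower and 1 higher past 2-fold. The other genes named above as past 2-fold lie in rows that share less than 0.9 of their span with the named gene, so their names are less certain. Other normalizations, filters and tools gave 28 to 37 lower and 3 or 4 higher, the least with upper-quartile factors, which moved the share of higher among all called genes from 48.0% to 55.4%. With the replicate block, 37 were lower and 3 higher. Ndufab1 lost its call (adjusted p = 0.0653), and Atp5d, Cox6a1 and Cox6c (adjusted p = 0.0322) gained one. Sirt6 lay between -3.88 and -3.52. Ndufs5 rests on few reads in both genotypes (means of 0.38 CPM in WT and 0.76 CPM in Sirt6 cKO samples). Coq8a does so in WT samples (mean 0.88 CPM, against 5.85 CPM in Sirt6 cKO samples). With 3 samples a genotype, a miss does not show that the genotypes are alike.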
